A study of Mus musculus with 16 samples.

Results

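H3K27me3, the repressive histone mark written by EZH2, was examined at 9 genes for receptors and endothelial surface proteins, namely Kdr, Kit, Pdgfra, Flt1, Flt4, Tek, Tie1, Cdh5 and Pecam1, out of 21631 protein-coding genes of the autosomes and X. The interval of chromosome 5 that holds Pdgfra, Kit and Kdr was examined with them. The genes were chosen by name with peak positions in these data already known, so their peaks are given as a description. A gene counted as marked when at least 1 base of a deposited peak fell within the gene body or 2 kb to either side. Its covered share is the percent of that stretch lying under peaks. Of the 106385 peaks in the 8 lists, 100 lay at these genes or in the interval.

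The cells were CCN6KOT, mouse breast cancer cells with a spindle metaplastic label, grown from tumours of a CCN6 knockout. Both groups therefore share the CCN6 knockout, carry a lentivirus and were selected with puromycin. The control group (PPGS in the sample titles) received a control lentivirus. The other group received dnTCF4, a dominant negative construct against beta-catenin/TCF signalling. Each group had 4 H3K27me3 libraries, while 8 further libraries made with IgG are not used here. The labels name neither separate cultures nor clones for the numbered libraries, so a p-value measures the spread between libraries, which may be technical.

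The libraries stood far apart before any gene was considered. The 4 control lists held 426, 738, 54070 and 22745 peaks in the order of their numbers, and the 4 dnTCF4 lists held 21492, 191, 4885 and 1838. Peaks covered 0.00920%, 0.0152%, 2.00% and 0.619% of the annotated genome in control and 0.632%, 0.00491%, 0.112% and 0.0327% in dnTCF4 libraries. Read depth is unknown, so the absence of a peak does not exclude the mark itself. A peak list also cannot tell a mark carried by a part of the cells from a weak mark carried by all of them.

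Kdr encodes VEGF receptor 2, the main signalling receptor for VEGF-A on blood vessel cells, while Flt1 and Flt4 encode the related VEGF receptors 1 and 3. Kit is the receptor of stem cell factor and Pdgfra that of platelet-derived growth factors, and both are receptor tyrosine kinases of one structural class. Kdr, Kit and Pdgfra lie side by side on mouse chromosome 5. Tek and Tie1 form the angiopoietin receptor pair of endothelium, and Cdh5 (VE-cadherin) and Pecam1 (CD31) are adhesion proteins of endothelial junctions. Polycomb commonly holds lineage genes silent in cells of another lineage through H3K27me3, which often spreads over kilobases around start sites rich in the dinucleotide CpG.

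The start regions of the 3 neighbouring receptor genes are shown because these genes differed in whether peaks surrounded them. Each window runs from 250 bases before to 50 bases after the RefSeq start (build GRCm38.p6), is written 5′ to 3′ on the gene's own strand, and has its CpG dinucleotides in capitals. The windows are chr5:75978406-75978705 on the minus strand for Kdr, chr5:75574737-75575036 on the plus strand for Kit and chr5:75152001-75152300 on the plus strand for Pdgfra. The Kit start (75574987) is the first base of the annotated gene. The starts used for Kdr (75978455) and Pdgfra (75152251) lie inside the annotated genes, and so do the whole Kdr and Pdgfra windows.
Kdr: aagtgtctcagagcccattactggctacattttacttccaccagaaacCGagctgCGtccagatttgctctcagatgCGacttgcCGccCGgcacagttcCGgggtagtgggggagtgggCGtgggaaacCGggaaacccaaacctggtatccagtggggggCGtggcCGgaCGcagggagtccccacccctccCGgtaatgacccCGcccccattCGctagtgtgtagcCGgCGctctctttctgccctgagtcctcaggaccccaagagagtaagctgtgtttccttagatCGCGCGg
Kit: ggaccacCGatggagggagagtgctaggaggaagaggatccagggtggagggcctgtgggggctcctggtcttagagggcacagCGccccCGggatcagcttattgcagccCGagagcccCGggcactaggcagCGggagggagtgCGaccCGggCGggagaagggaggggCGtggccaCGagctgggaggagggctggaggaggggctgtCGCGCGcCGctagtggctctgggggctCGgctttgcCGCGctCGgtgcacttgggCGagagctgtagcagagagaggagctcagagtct
Pdgfra: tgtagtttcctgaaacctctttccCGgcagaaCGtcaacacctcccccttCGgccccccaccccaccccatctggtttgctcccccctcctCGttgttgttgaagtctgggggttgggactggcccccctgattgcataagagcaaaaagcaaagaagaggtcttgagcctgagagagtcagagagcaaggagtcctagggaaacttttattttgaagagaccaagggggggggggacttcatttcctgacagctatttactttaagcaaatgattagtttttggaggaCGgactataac

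The Kdr window held 19 CpG and the Kit window 20, against a median of 14 over 17274 promoters, while the Pdgfra window held 5. The ratio of observed to expected CpG was 0.689 for Kdr, 0.621 for Kit and 0.256 for Pdgfra, with a median of 0.585 over all promoters. Kdr and Kit had similar CpG content in these windows. Peaks flanked the Kdr window in 3 libraries, and the peak nearest to the Kit gene in any library lay 83.7 kb away. Whether CpG content bears on where peaks lie at these genes was not tested. Among the other members in the RefSeq table, Flt1 and Flt4 had 29 and 26 CpG, and Tie1 and Tek 7 and 3. Across the genome, starts richer in CpG did not have peaks more often in control 3. There a peak lay within 2 kb of the start for 8.07% of promoters with a ratio of at least 0.6 and for 13.2% of the others. The letters CTTTGA, the core of the TCF/LEF binding motif, were in none of the 7 member windows on either strand and in 14.9% of all promoter windows.

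Kdr was the member with the most H3K27me3. It lies on chromosome 5 from 75932827 to 75979072 on the minus strand and was marked in 3 control and 3 dnTCF4 libraries. Control 2 counts only because of the added 2 kb, as its peak lay 0.867 kb outside the gene. Its covered share was 0%, 0.360%, 37.0% and 10.6% in control libraries 1 to 4 and 13.9%, 0%, 4.89% and 1.31% in dnTCF4 libraries 1 to 4. Control 3 was highest, dnTCF4 1 and control 4 lay close together, and both groups had a library at 0. The groups overlapped, with control 3 alone above the highest dnTCF4 library. The Kdr shares had the same order as the genome shares of the libraries, and the 2 libraries without a Kdr peak were those with the shortest lists.

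**Figure D1:**
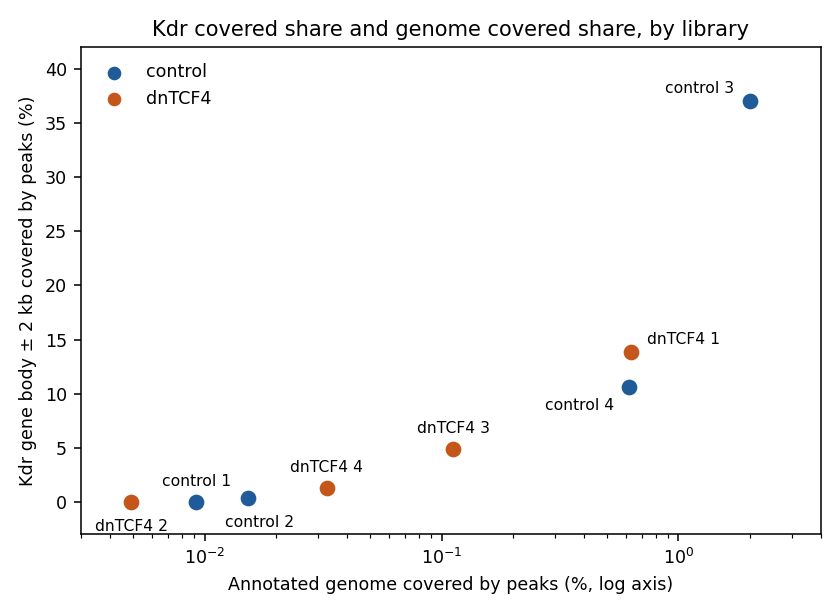
Percent of the Kdr gene body with 2 kb to each side lying under peaks (vertical axis) against the percent of the annotated genome under peaks (horizontal log axis), 1 point per library, control in blue and dnTCF4 in orange. The points rise together from 0% at the shortest lists to 37.0% in control 3, with control 4 and dnTCF4 1 side by side.

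Relative to the whole genome, Kdr with its added 2 kb was covered 23.7, 18.5 and 17.2 times as densely in control 2, control 3 and control 4. The ratio was 22.0, 43.6 and 39.99 in dnTCF4 1, dnTCF4 3 and dnTCF4 4, and 0 in control 1 and dnTCF4 2. Without the added 2 kb it was 0, 17.5 and 16.7 in control 2, control 3 and control 4. In dnTCF4 1, dnTCF4 3 and dnTCF4 4 it was then 17.0, 46.9 and 20.3. In control 3 Kdr ranked 327th by covered share among 4344 marked genes, in dnTCF4 1 466th among 2962, and in control 4 528th among 2696. In the shorter lists it ranked 271st of 1109 (dnTCF4 3), 213th of 521 (dnTCF4 4) and 161st of 229 (control 2). Kdr was thus among the top 7.53% to 24.4% of marked genes in the 4 longest lists, and lower in the 2 shorter ones that marked it.

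The difference between groups at Kdr was smaller than the spread of libraries. Control libraries averaged a covered share of 12.0 ± 17.4% (SD, n = 4) and dnTCF4 libraries 5.02 ± 6.26% (SD, n = 4). The difference of -6.98 percentage points had a two-sided exact permutation p of 0.686 and an adjusted p of 1. The test was run on all 4626 genes marked in any library, of which 0 (0%) passed at an adjusted p under 0.05. At an unadjusted p under 0.05 there was 1 gene (0.0216%), Nhsl2 on X, named after its values were seen. That count depended on the libraries and the scale. It was 0 without dnTCF4 1, dnTCF4 3 or dnTCF4 4, 3 without control 2 (Cxcr1, Retn and Nhsl2) and 1 other gene, Fbn1, without dnTCF4 2. It was 3 other genes with lists cut to at most 1838 peaks (Cybrd1, Kcnk15 and Galnt9) and 13 relative to the genome share. It was 0 at a minimum −log10 q of 2, 1 other gene (Mmp20) at 3, and 0 with the replicate block. The smallest p of the design is 0.0286, and at least 2644 genes would have to reach it for any to pass the adjustment. Control 3 set the direction at Kdr, since without it the difference was 1.36 percentage points. With lists cut to at most 1838 peaks it was 1.32. Control 1, control 2 and dnTCF4 2 held fewer peaks and stayed shorter, so list lengths were not fully equalised. On the log2 scale relative to the genome share the difference was 0.73. That scale adds 0.01 percentage points to both shares, which exceeds the genome share of control 1 and of dnTCF4 2.

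Within Kdr the cover was densest in the first 10 kb in the 4 libraries with peaks there. Control 3 also had peaks through the middle of the gene, and control 4 had 1 of 312 bases there, 28.6 kb after the start site. In dnTCF4 4 peaks lay at the far end only, and control 2 had none inside the gene, only 1 lying 0.867 kb beyond its far end. The first 10 kb of the gene after the start site had 7.10 kb under peaks in control 3, 3.58 kb in control 4, 3.05 kb in dnTCF4 1 and 1.60 kb in dnTCF4 3. The remaining 35.6 kb had 8.94, 1.22, 1.91 and 0.833 kb under peaks in the same libraries. In control 3 a single peak of 6701 bases ran from 0.906 to 7.61 kb after the start site. Peaks of 2791, 2074 and 1600 bases lay inside that stretch in control 4, dnTCF4 1 and dnTCF4 3. The authors' fold enrichment of these 4 peaks was 3.36, 3.68, 3.84 and 4.36 in that order. The median fold of all peaks in the same lists was 3.01, 3.39, 3.50 and 4.05. Within its own list, each peak's fold lay at percentile 89.0, 85.3, 84.0 and 82.6, so the folds are not compared between libraries.

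**Figure D2:**
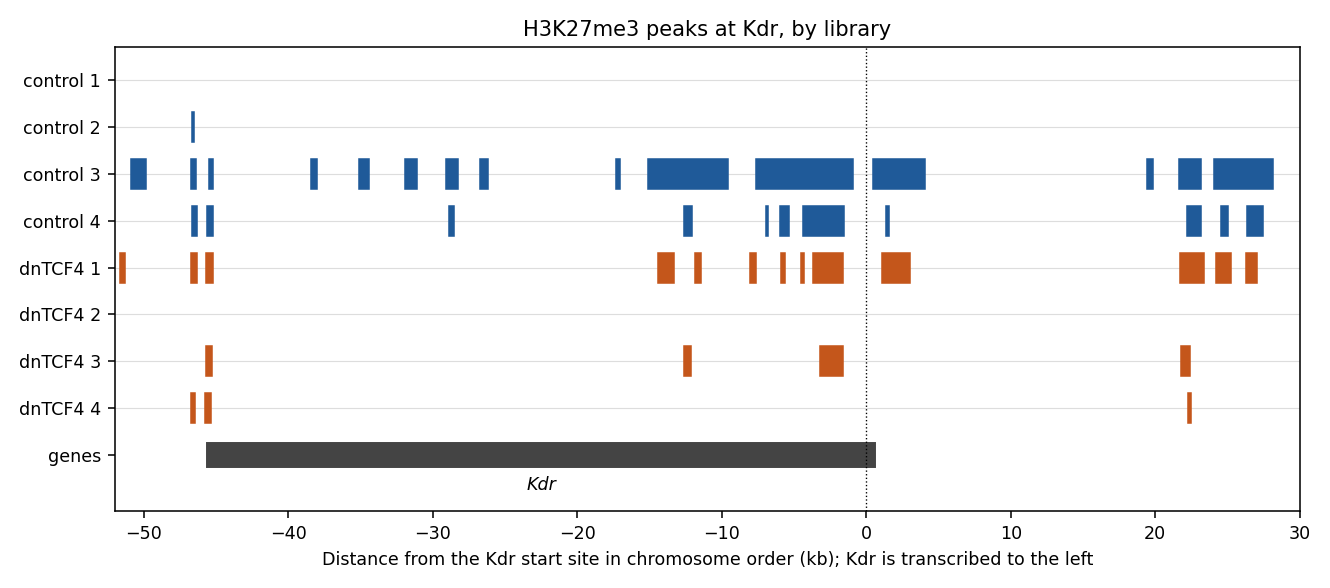
Peaks at Kdr in each library (rows; control in blue, dnTCF4 in orange) by distance in kb from the Kdr start site in chromosome order, with the gene as a grey bar and the start site as a dotted line. Peaks crowd to the left of the dotted line in control 3, control 4, dnTCF4 1 and dnTCF4 3, leave the line itself free, continue through the gene in control 3, and include narrow regions about 46 kb away at the end of the gene.

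The start site used here, 75978455, carried no peak in any library, and no peak overlapped the printed Kdr window. It lies inside the annotated gene, which reaches to 75979072, and a control 3 peak (75978897 to 75982509) covered that outer end. In control 3 the peaks left a gap of 1347 bases around the start site, from 0.906 kb after it to 0.442 kb before it. The gap was 2923 bases in control 4 and 2673 bases in dnTCF4 1. In dnTCF4 3 a peak lay 1.61 kb after the start site and the next one upstream 21.8 kb away. A free start base was the usual arrangement and is not particular to Kdr. Of 956 genes with peaks on both sides within 3 kb in control 3, 80.9% had an uncovered start, as did 85.3% of 381 in control 4 and 87.7% of 530 in dnTCF4 1. That count was chosen after the gap at Kdr had been seen.

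The 3′ end of Kdr held the narrow regions found in most libraries. One of 422 bases (75931720 to 75932141), 0.686 kb beyond the end of the gene, was a peak in control 2, control 3, control 4, dnTCF4 1 and dnTCF4 4. The authors' fold enrichment there was 4.52, 4.77, 3.64, 3.47 and 5.87 in that order. Within their own lists these folds lay at percentiles 41.7, 99.9, 82.4, 46.2 and 95.8. In control 3 this peak had the highest −log10 q of the Kdr peaks (6.72) and ranked 52nd of 54070, and in control 4 (3.34) it ranked 358th of 22745. It ranked 144th of 1838 in dnTCF4 4 (3.72) and 1691st of 21492 in dnTCF4 1 (2.34), and low in control 2, at 591st of 738 (1.55). A second region of 522 bases (75932717 to 75933238) overlapped the last bases of the gene and was a peak in control 3, control 4, dnTCF4 1, dnTCF4 3 and dnTCF4 4. With lists cut to 1838 peaks, the 422-base region was all that stayed at Kdr in control 3, control 4 and dnTCF4 1, covering 0.748%, 0.667% and 0.840%.

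Upstream of Kdr peaks continued towards Srd5a3, the next protein-coding gene. The 161 kb between them were covered to 19.1% in control 3, 7.07% in control 4, 9.05% in dnTCF4 1, 0.985% in dnTCF4 3, 0.322% in dnTCF4 4 and 0.169% in dnTCF4 2, with no peak in control 1 and control 2. A region 94.6 to 96.6 kb upstream of the Kdr start (76073035 to 76075086), between annotated protein-coding genes, was a peak in 2 control and all 4 dnTCF4 libraries. It held the only peak of dnTCF4 2 near Kdr. The part nearest to Kdr, from 75977332 to 76013212, is annotated as the long noncoding RNA gene Gm32727.

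Kit and Pdgfra carried no peak in any of the 8 libraries. Kit (chromosome 5, 75574987 to 75656722) and Pdgfra (75151322 to 75198206), each with 2 kb to either side, had a covered share of 0% in all 4 control and all 4 dnTCF4 libraries. The peak nearest to Kit lay 83.7 kb away in control 3, and the peak nearest to Pdgfra 22.9 kb away in dnTCF4 1. The whole Kit gene lay in the longest stretch without any peak between Chic2 and Srd5a3, 334 kb from 75406656 to 75740403. Pdgfra lay in the next longest, 95.8 kb from 75128382 to 75224220. Absence of peaks is the common state, as 78.6% of protein-coding genes were unmarked in all 8 libraries.

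**Figure D3:**
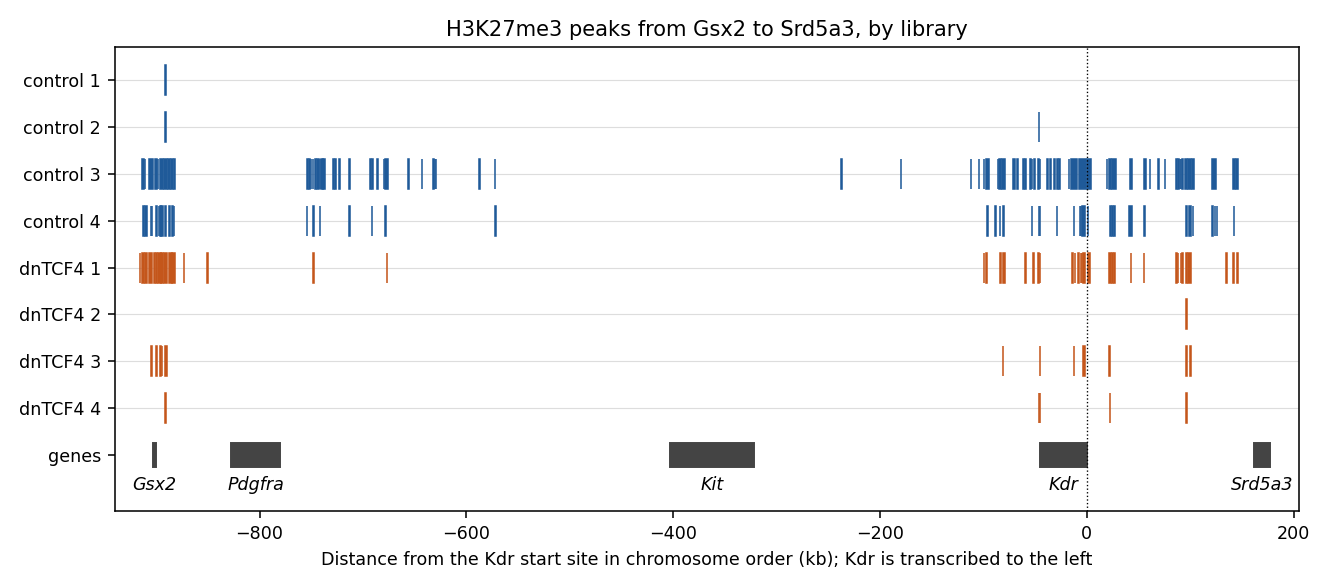
Peaks of each library (rows; control in blue, dnTCF4 in orange) from Gsx2 to Srd5a3 by distance in kb from the Kdr start site in chromosome order, with genes as grey bars and narrow peaks drawn at a minimum visible width. Peaks gather at Gsx2 and around Kdr, and in control 3 and control 4 also between Pdgfra and Kit, while the Pdgfra and Kit bars have none above them.

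The interval from 2 kb before Pdgfra to 2 kb after Kdr (chromosome 5, 75149322 to 75981072, 832 kb) was covered to 0%, 0.0218%, 6.66% and 1.37% in control libraries 1 to 4. In dnTCF4 libraries 1 to 4 it was covered to 1.37%, 0%, 0.366% and 0.0791%. Control 4 and dnTCF4 1 were equal at this rounding, and control 3 stood above all others. Control libraries averaged 2.01 ± 3.16% (SD, n = 4) and dnTCF4 libraries 0.454 ± 0.631% (SD, n = 4). The difference of -1.56 percentage points had a two-sided exact permutation p of 0.657. The difference was -0.0088 without control 3, 0.083 with lists cut to at most 1838 peaks and 0.24 on the log2 scale relative to the genome share. Relative to the whole genome, the interval was covered 1.43, 3.33 and 2.21 times as densely in control 2, control 3 and control 4. The ratio was 2.17, 3.27 and 2.42 in dnTCF4 1, dnTCF4 3 and dnTCF4 4. Chromosome 5 as a whole was itself covered more densely than the genome in these libraries, except in control 2. Its share was 2.98% in control 3, 1.01% in control 4 and 1.06% in dnTCF4 1. In dnTCF4 3, dnTCF4 4 and control 2 it was 0.158%, 0.0440% and 0.0151%.

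The sections of the interval differed from each other within the same library. In control 3 the 377 kb between Pdgfra and Kit were covered to 5.62% and the 276 kb between Kit and Kdr to 5.79%, while the Kdr gene was covered to 35.1%. In dnTCF4 1 these shares were 0.167%, 1.55% and 10.7%, and in control 4 0.635%, 1.44% and 10.4%. The section between Pdgfra and Kit had 25 peaks in control 3, 7 in control 4 and 2 in dnTCF4 1, with none in the other 5 libraries. Set against its genome share, that section was covered 2.81 times as densely in control 3, 1.02 times in control 4 and 0.264 times in dnTCF4 1. Peaks of the 8 libraries joined into 54 regions in the interval, of which 35 came from 1 library and 33 from control 3 alone. There were 12 regions shared by both groups, 41 with control peaks only and 1 with dnTCF4 peaks only. The count for control rests on control 3, the longest list.

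On the other side of Pdgfra the peaks belonged to the surroundings of Gsx2, a homeobox gene of forebrain development, which was added after its values were seen. The 75.7 kb from the Gsx2 start to Pdgfra were covered to 0.993%, 0.335%, 16.5% and 8.17% in control libraries and 18.0%, 0%, 3.80% and 1.61% in dnTCF4 libraries. A region there (75086205 to 75088774) was a peak in all 4 control libraries and in 3 of 4 dnTCF4 libraries, which is more libraries than any region at Kdr. Control 3, control 4 and dnTCF4 1 had peaks on both sides of Pdgfra and none on it, although dnTCF4 1 had only 2 on the side towards Kit.

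The other receptor genes had little or no mark. Flt4 (chromosome 11, 49609679 to 49652739) was covered to 3.81% in control 3 and 0% in the other 7 libraries. Its peaks lay 4.72 to 6.10 kb and 9.94 to 10.3 kb after the start site, with fold enrichments of 3.07 and 3.62. Tek (chromosome 4, 94739086 to 94874976) was covered to 0.271% in control 3 by 1 peak of 379 bases, 111 kb after its start. Flt1 (chromosome 5, 147561604 to 147726438) was covered to 0.149% in control 3 by 1 peak of 251 bases, 2.02 kb before its start. That peak lay 1.59 kb outside the gene, so Flt1 counts as marked only because of the added 2 kb. Flt4 had peaks just outside that limit in other libraries, at 2.07 kb before the gene in control 4 and 2.09 kb in dnTCF4 1. Within the limit, each of these 3 genes was marked by a single library, and the exact permutation test gave p = 1 and adjusted p = 1 for each.

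Tie1 (chromosome 4, 118471191 to 118489849), Cdh5 (chromosome 8, 104101613 to 104144504) and Pecam1 (chromosome 11, 106654213 to 106715281) had no peak in any library. The nearest peak in any list lay 23.1 kb from Tie1, 12.1 kb from Cdh5 and 281 kb from Pecam1, all 3 in control 3. Of the members without a peak in any library, Cdh5 thus had the nearest one.

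Counted over the members, 4 of 9 were marked in control 3, where 20.1% of all protein-coding genes were. Kdr alone was marked in control 2 (1.06% of all genes), control 4 (12.5%), dnTCF4 1 (13.7%), dnTCF4 3 (5.13%) and dnTCF4 4 (2.41%). No member was marked in control 1 (0.675%) or dnTCF4 2 (0.254%). Over all libraries, 4 of 9 members and 21.4% of all genes had a peak. The median covered share of the members was 0% in every library, as was that of all genes. With a minimum −log10 q of 2 the members marked were 2 (Kdr and Flt4), with a minimum of 3 only Kdr, and without control 3 only Kdr.

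The 3 genes outside the interval most like Kdr were found by the mean absolute difference in covered share over the 8 libraries, among 77 genes marked in exactly the same libraries. They were Chn1 (difference 0.668 percentage points), Pamr1 (1.05) and Acoxl (1.20), all on chromosome 2. Chn1 was covered to 35.8% and 11.0% in control 3 and control 4 and to 15.1% and 2.51% in dnTCF4 1 and dnTCF4 3. No such genes can be named for Kit and Pdgfra, which share their lack of peaks with 17003 genes.

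Most genes are unmarked, and the lists of related genes are read against the share of all genes marked (21.4% in any library, 20.1% in control 3, 12.5% in control 4, 13.7% in dnTCF4 1, 5.13% in dnTCF4 3 and 2.41% in dnTCF4 4). Of 13 ligands of these receptors, including Vegfa, Angpt1, Kitl and Pdgfa, only Vegfc, a ligand of VEGF receptor 3, had a peak, with a covered share of 0.511% in control 3. That is 7.69% of the ligands. Among 13 further receptors and co-receptors, dnTCF4 1 and control 3 marked 3 each (23.1%), control 4 marked 2 (15.4%), and dnTCF4 3 and dnTCF4 4 marked 1 each (7.69%). In control 3 and control 4 these shares lay near those of all genes. Acvrl1, an endothelial receptor of the TGF-beta family, was covered to 15.2% and 14.2% in control 3 and control 4 and to 12.8%, 6.89% and 1.24% in dnTCF4 1, dnTCF4 3 and dnTCF4 4. Flt3, a blood cell receptor related to Kit, was covered to 4.92%, 1.16% and 2.01% in control 3, control 4 and dnTCF4 1. Robo4, an endothelial guidance receptor, was covered to 20.1% in control 3 and 11.9% in dnTCF4 1.

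Among 15 endothelial and blood transcription factors, control 3 marked 9 (60%, where 20.1% of all genes were marked), dnTCF4 1 marked 7 (46.7% against 13.7%) and control 4 marked 5 (33.3% against 12.5%). The libraries dnTCF4 3 and dnTCF4 4 marked 2 each (13.3% against 5.13% and 2.41%). Their median covered share was 3.64% in control 3, against 0% over all genes, and 0% in the other 7 libraries. Lmo2, an adaptor of the blood stem cell complex with Tal1, was covered to 55.5% and 19.1% in control 3 and control 4 and to 32.4%, 8.04% and 5.99% in dnTCF4 1, dnTCF4 3 and dnTCF4 4. Sox18, a regulator of vessel development, was covered to 33.0% and 37.8% in control 3 and control 4 and to 29.4%, 4.12% and 3.98% in the same dnTCF4 libraries. Both had a higher mean covered share than Kdr, at 15.1% and 13.5% over 8 libraries against 8.51%. Hhex (26.5%, 12.2% and 20.4%) and Tal1 (10.4%, 3.05% and 9.18%) were marked in control 3, control 4 and dnTCF4 1.

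**Figure D4:**
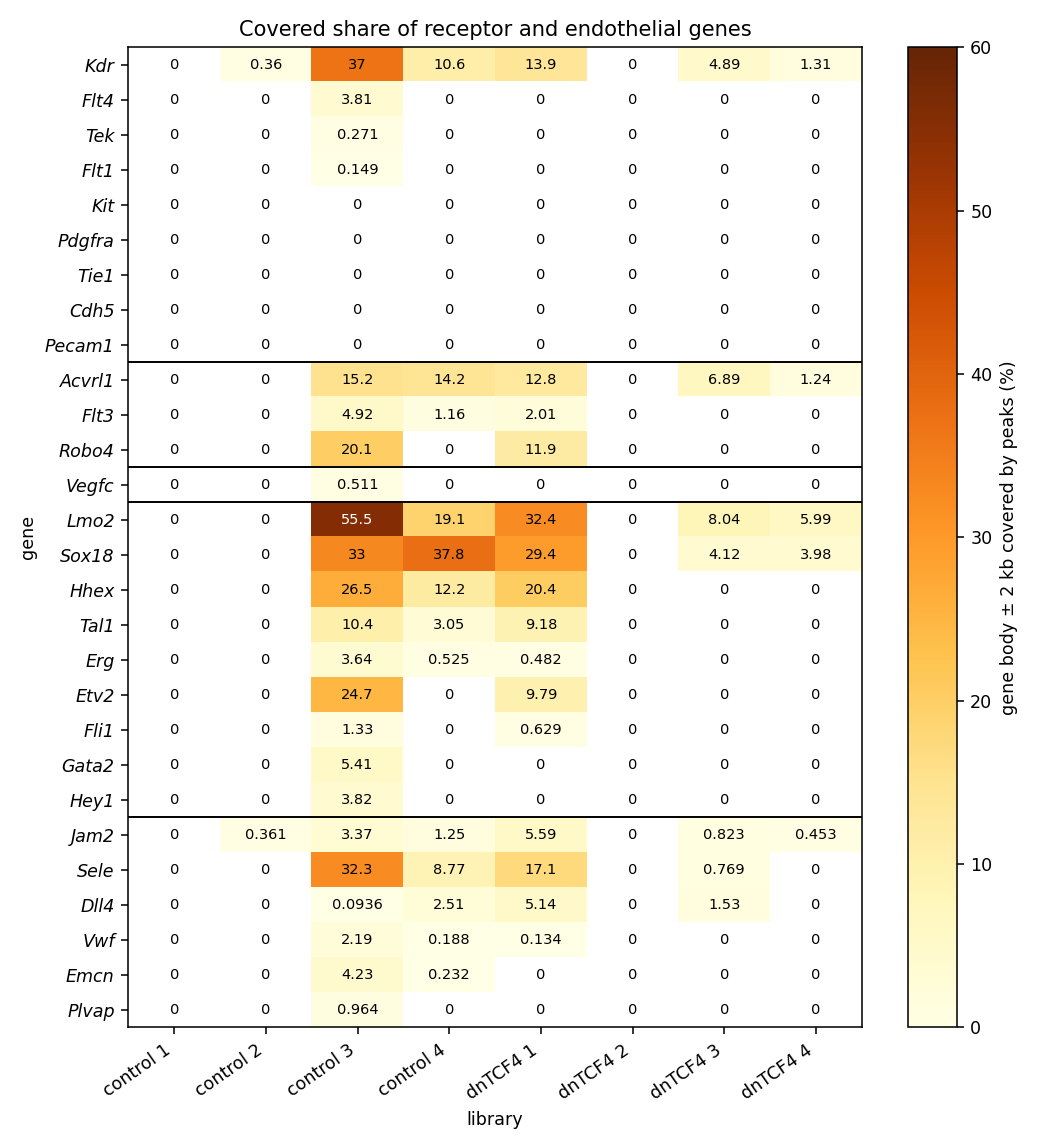
Covered share (percent of gene body with 2 kb to each side under peaks; colour and printed value) of the 9 members and of the marked genes of the 4 other lists, which are separated by lines (further receptors, ligands, transcription factors, surface and junction genes), by library. Kdr stands out from the other members with 37.0% in control 3, while Lmo2 reaches 55.5% there.

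Among 16 endothelial surface and junction genes, control 3 marked 6 (37.5%, where 20.1% of all genes were marked), control 4 marked 5 (31.3% against 12.5%) and dnTCF4 1 marked 4 (25% against 13.7%). In dnTCF4 3 there were 3 (18.8% against 5.13%), and in control 2 and dnTCF4 4 there was 1 each (6.25% against 1.06% and 2.41%). No difference between any of these lists was tested. Jam2, a junction protein, was marked in the same 6 libraries as Kdr, with covered shares from 0.361% in control 2 to 5.59% in dnTCF4 1. Sele, the adhesion molecule E-selectin, was covered to 32.3% and 8.77% in control 3 and control 4 and to 17.1% and 0.769% in dnTCF4 1 and dnTCF4 3. The Notch ligand Dll4 was covered to 0.0936% and 2.51% in control 3 and control 4 and to 5.14% and 1.53% in dnTCF4 1 and dnTCF4 3. Vwf, the clotting factor stored in endothelium, was covered to 2.19% in control 3, 0.188% in control 4 and 0.134% in dnTCF4 1. Across the 5 lists 0 genes differed between the groups at an adjusted p under 0.05 in the exact permutation test, and 0 at an unadjusted p under 0.05.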

How the data were processed

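H3K27me3 ChIPmentation libraries of 4 control and 4 dnTCF4 samples were used. Per the submitters' processing notes, the tools included Bowtie2 2.3.4.1, bedtools 2.28.0 and MACS2 2.1.2 on build mm10. Tool options and the control for peak calling: not given in the sources used here. Each deposited list holds peaks of 1 library, since peak names carry its name, with no read counts. Per peak, the authors deposited a fold enrichment ratio over background, a −log10 p and q value, and a score, which was not used. Peaks were ranked and filtered by these values, always within 1 list.

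Peaks were merged within each library, and covered bases were counted over RefSeq genes (GRCm38.p6, the same build) extended by 2 kb. Strand and start sites came from the RefSeq promoter table, which held 17274 of the genes and 7 of the 9 members. Exons, introns and UTRs were not analysed here. All 66 listed genes matched. Covered shares were compared over all 70 assignments of 8 libraries with a two-sided exact permutation test and adjusted by Benjamini-Hochberg over genes marked in any library. The test was checked on simulated data with less spread between libraries than these lists have. That check does not show how the test performs on these lists. The members and lists were chosen with earlier results of these data known. Named genes are the members, protein-coding genes of the interval, up to 4 genes per list with peaks in the most libraries, and the 3 closest in pattern to Kdr. Alternatives were 2 stricter q minimums, lists of equal length, other extensions, a 500-base minimum, shares relative to the genome, a replicate block, single libraries left out and, chosen after seeing the data, peaks joined across gaps of up to 3 kb. Python 3.11.15, NumPy 2.4.6 and pandas 2.3.3 were used.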

Additional observations from a re-analysis of the deposited data

Results flagged for a closer look

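Within a group of 4 libraries, 1 library stood far from the other 3 (a gap ratio above Dixon's 95% critical value) for 11 covered shares. Chance flags about 1 in 20 groups, 25 groups with any peak were examined, and groups in which 3 libraries are at or near 0 are flagged readily.

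In control 3, the longest list, these were Flt1 (0.149%), Flt4 (3.81%), Tek (0.271%), the section between Pdgfra and Kit (5.62%), the 10 kb before the Kdr start site (36.1%) and the Kdr body beyond its first 10 kb (25.1%). In dnTCF4 1, the longest list of its group, they were the sections between Pdgfra and Kit (0.167%), between Kit and Kdr (1.55%), before the Kdr start site (19.5%), between Kdr and Srd5a3 (9.05%) and between Chic2 and Gsx2 (19.6%). Genome-wide covered share also differed between these libraries and the others of their groups, at 2.00% in control 3 and 0.632% in dnTCF4 1, and its part in these values was not tested.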

How the results depend on the processing

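The difference in covered share of the interval (dnTCF4 minus control, -1.56 percentage points) kept its direction in 14 of 16 alternatives. Over all 16, p lay between 0.257 and 0.943 by exact permutation test, or by exact sign-flip test for the replicate block. The difference turned to 0.083 with lists cut to at most 1838 peaks and to 0.24 on the log2 scale relative to the genome share. Leaving out 1 library at a time gave -2.23 to -0.0088. At Kdr (-6.98) the same alternatives gave 1.32 and 0.73, and leaving out 1 library gave -11.0 to 1.36, the last without control 3. The number of genes called, 0, was 0 in every alternative that tested genes. Members with a peak, 4, became 2 at a −log10 q of at least 2, 1 at 3 and 1 with lists cut to at most 1838 peaks. They became 2 with at least 500 bases covered, and 1 to 4 with 1 library left out. With peaks joined across gaps of up to 3 kb, the covered share of Kdr was 66.9% (control 3), 21.5% (control 4) and 30.2% (dnTCF4 1). The causes of these changes were not tested.

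With the replicate number as a block, the interval difference of -1.56 had an exact sign-flip p of 0.625 and 0 genes were called, where the 16 sign assignments of 4 pairs cannot reach the threshold. Deviations of same-numbered libraries from their group means correlated at -0.39, 0.40, 0.0077 and -0.29 across genes. Only control 2 correlated best with the library of its own number. The highest correlation was 0.48, between control 1 and dnTCF4 2, the shortest lists of their groups. With list lengths so unequal, these values cannot tell whether same-numbered libraries belong together, and the labels do not say. Depth is unknown, and lists of 191 to 738 peaks could show little at any single gene.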
